A study of Homo sapiens with 6 samples.

Results

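The genes described here are 37 genes of the antioxidant programme of the transcription factor NRF2, together with the aldo-keto reductases and related carbonyl-reducing and detoxifying enzymes. They were chosen by name, with earlier results of these data known. Each was represented by the brightest of the probe sets that name it alone. Of the 37 listed genes 35 had such a probe set and 2, FTH1 and AKR1A1, had none and were not analysed here, against 19775 genes in all. The cells were HaCaT, a human skin keratinocyte line that became immortal without a transgene, grown in medium with serum. For 12 h, 3 cultures were kept in an incubator at a negative pressure of 125 mmHg and 3 at ambient pressure, and the RNA of each was measured on its own Affymetrix array, 6 in all. All values are log2 values after RMA, which corrects background, equalises the arrays and summarises the probes of each probe set, and 3 arrays per group limit the precision. Since all 6 cultures are of 1 line, the results describe that line.

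NRF2, encoded by NFE2L2, is held at a low level in unstressed cells by KEAP1, an adaptor that hands it to a ubiquitin ligase for degradation. Electrophiles and oxidants modify cysteines of KEAP1, NRF2 then accumulates, pairs with a small MAF protein such as MAFG and binds antioxidant response elements near its target genes. In skin, the targets supply glutathione, reduced thioredoxin, NADPH and enzymes that detoxify quinones and aldehydes. Most of the control of NRF2 acts on its protein, so the NFE2L2 transcript is not a measure of its activity. In RNA of whole cultures, fewer cells of a type and less RNA per cell cannot be told apart.

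The keratinocyte label was checked first. All 8 measured keratinocyte markers, among them KRT5, KRT14, DSP and CDH1, lay above the median gene mean, whereas 2 of the 17 measured markers of fibroblasts, melanocytes, leukocytes and endothelium did (COL1A1 and PECAM1). Of these 17, CDH5 was the 1 that passed, a dim probe set with a log2 difference of -0.80 (limma adjusted p = 0.0325). Summed log2 values of the keratinocyte markers ran from 81.96 to 82.25 under negative pressure, against 80.66 to 81.02 at ambient pressure, and 0 of the 8 passed. With the replicate block 1 of the 8 passed, the desmosomal cadherin DSG3, higher by 0.63 (limma adjusted p = 0.0146). The markers did not all move alike: ITGB4 stood at -0.19 and ITGA6 at -0.12. The other measured keratinocyte markers stood above 0, from 0.06 for KRT14 to 0.63 for DSG3. The part of this difference in summed values in the results below was not tested. The first principal component, with 42.2% of the variance, placed replicate 3 of negative pressure at 31.1 and replicate 3 of ambient pressure at 20.3, with the other 4 arrays between -18.3 and -9.07. Among the 35 measured genes, both replicate 3 arrays were the lowest of the 6 arrays for NFE2L2, GCLC, GCLM, UGDH, ME1 and CBR1 and the highest for GSR, PRDX6, GSTP1, GSTM3, GSTM4 and EPHX1. These shares, 17.1% each way, stand beside 17.2% and 15.2% of all genes.

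The question was which of these genes differed between negative and ambient pressure. AKR1B10, an aldo-keto reductase that reduces retinal and reactive aldehydes, rose 1.77-fold and was the 1 member of 35 past an adjusted p of 0.05 in limma. No member fell, and the 8 of 35 members with an unadjusted p under 0.05 were all higher, where 2304 of 19775 genes had such a p in either direction. Over all genes 0.920% passed the adjusted threshold, 0.607% higher and 0.314% lower. With the replicate number as a block 4 members passed, all higher: AKR1B10, AKR1C3, TXNRD1 and GPX2. The labels do not state this pairing of replicate numbers, which was read from the data. Over all genes 4.94% passed with the block, 2.87% higher and 2.06% lower. The differences of the 35 genes ran from -0.22 for ABCC3 to 0.82 for AKR1B10 with a median of 0.20, and 29 lay above 0 (82.9%), whereas over all genes the median was 0.01 and 53.4% lay above 0. The 3 negative pressure arrays lay wholly above the 3 ambient arrays for 10 members (28.6%), against 10.3% of all genes. They lay wholly below for 2 members (5.71%), SRXN1 and ABCC3, against 6.96% of all genes. Of the 35 members 3 lay below the median gene mean, against 9887 of 19775 genes, so the members were the brighter set. The part of brightness in these shares, and of choosing members with earlier results known, was not tested.

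**Figure D1:**
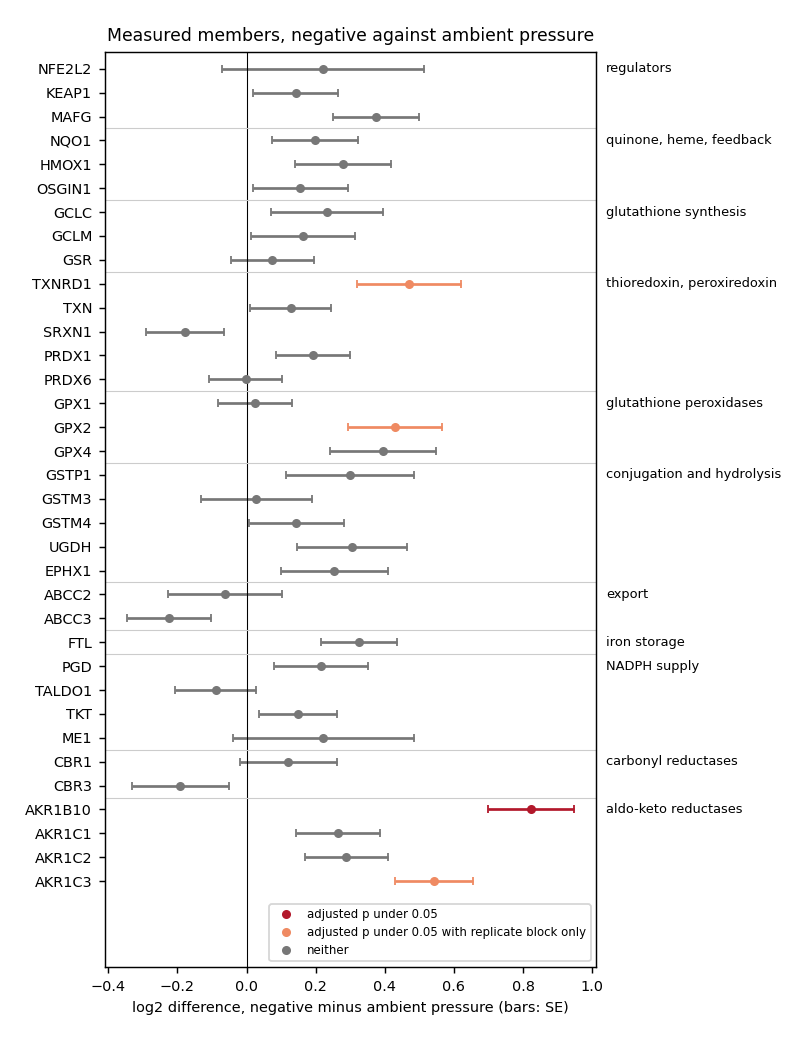
Log2 difference, negative minus ambient pressure, with its standard error for the 35 measured genes, grouped by role (n = 3 arrays per group). AKR1B10 at 0.82 is the 1 gene past the threshold, AKR1C3, TXNRD1 and GPX2 passed with the replicate block, and most other genes lie between 0 and 0.40.

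The aldo-keto reductases use NADPH to reduce carbonyl groups of aldehydes, ketones, steroids and prostaglandins. AKR1B10 read 5.72, 5.84 and 5.56 under negative pressure (replicates 1 to 3), against 5.02, 4.80 and 4.83 at ambient pressure. The groups were far apart relative to their spread, with means of 5.71 ± 0.14 and 4.88 ± 0.12 (SD, n = 3 each). The signal was low: the ambient mean lay below the median gene mean, and the mean over all arrays stood at percentile 53.5 of all genes. The log2 difference was 0.82 ± 0.12 (SE; limma adjusted p = 0.0247, 0.00300 with the replicate block). Its call was lost when 1 of 5 of the arrays was left out in turn, with adjusted p = 0.105 without negative pressure replicate 1, 0.116 without negative pressure replicate 2, and 0.0869, 0.150 and 0.0599 without ambient replicates 1, 2 and 3, and the difference stayed between 0.76 and 0.90. The 1 probe set that names it is of the type Affymetrix marks as matching more than 1 transcript, and signal from its close paralog AKR1B15, which had no probe set of its own here, cannot be told apart.

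AKR1C3, which reduces steroid ketones and prostaglandin D2, read 8.41, 8.63 and 8.63 under negative pressure and 8.02, 8.03 and 7.99 at ambient pressure. The ambient arrays were almost equal and all 3 negative pressure arrays lay above them. The log2 difference was 0.54 ± 0.11 (SE), 1.46-fold, with a limma adjusted p of 0.0742, past the threshold with the replicate block (0.0188).

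AKR1C2, a reductase of dihydrotestosterone and other 3-ketosteroids, read 9.59, 9.73 and 9.61 under negative pressure, against 9.48, 9.38 and 9.20 at ambient pressure. AKR1C1, which inactivates progesterone, read 9.57, 9.63 and 9.89 under negative pressure, against 9.38, 9.44 and 9.47 at ambient pressure. Neither pair of groups overlapped, but the gaps were small: the log2 differences were 0.29 for AKR1C2 (limma adjusted p = 0.387) and 0.26 for AKR1C1 (0.457). Both probe sets are of the cross-hybridising type, and the 2 genes are near-identical copies, so their values are not independent. AKR1C2 had a second bright probe set at 0.37 and AKR1C1 one at 0.18, while dim ones stood at -0.01 for AKR1C2 and between -0.25 and 0.35 for AKR1C1. A dim probe set annotated to both genes, which gives neither a value of its own, read 4.85, 5.03 and 4.06 under negative pressure and 3.68, 3.45 and 3.36 at ambient pressure. Fitted among all 54613 probe sets other than controls, its difference was 1.15 ± 0.23 (SE; limma adjusted p = 0.0843, 0.00957 with the replicate block), where 0.480% of probe sets passed, and 2.27% with the block.

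**Figure D2:**
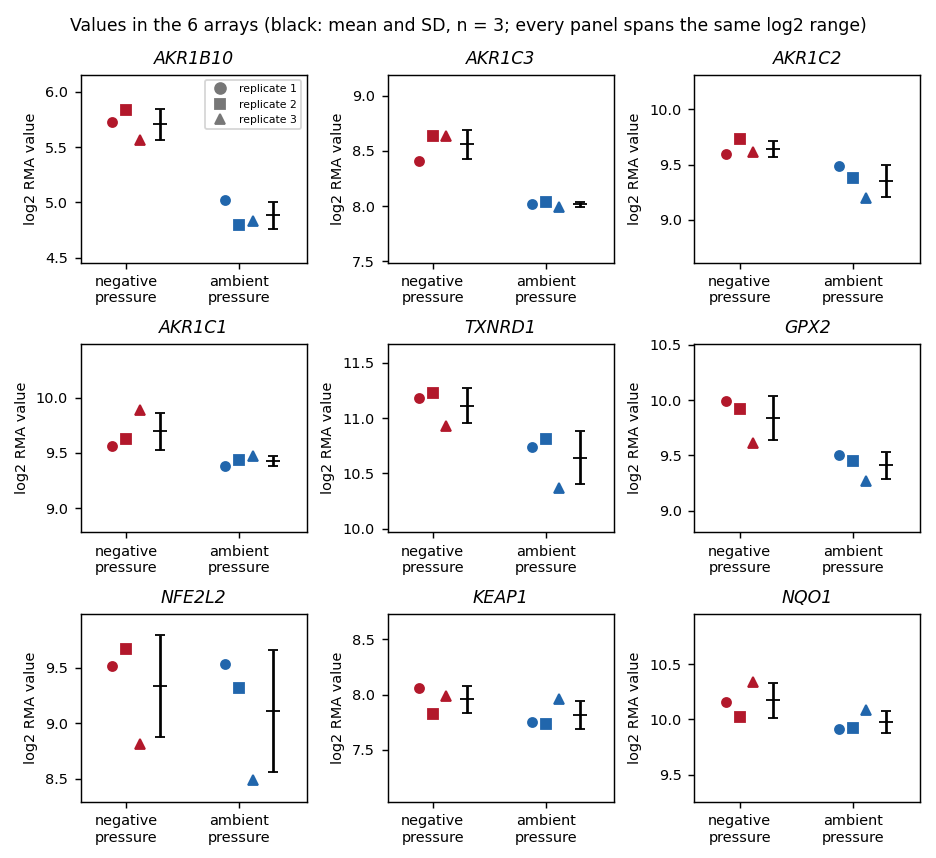
Log2 RMA values of 9 genes in each array, negative pressure left of ambient pressure, with the replicate number as marker shape and the mean and SD in black (n = 3). The groups are apart for AKR1B10, AKR1C3, AKR1C2, AKR1C1, TXNRD1 and GPX2 and overlap for NFE2L2, KEAP1 and NQO1, and NFE2L2 is lowest in the replicate 3 array of each group.

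The likeness of the AKR1C genes extends to their promoters. These are shown from RefSeq (GRCh38.p14) as the 250 bases before the start, in the direction of the gene. They were chosen because the negative pressure arrays lay above the ambient arrays for each gene, though AKR1C1 and AKR1C2 passed in neither fit. Any part of the promoters in these differences was not tested. AKR1C1 lies at chr10:4963165-4963414, plus strand, AKR1C2 at chr10:5003858-5004107, minus strand, and the first of the 2 AKR1C3 starts in the table at chr10:5048531-5048780, plus strand. AKR1C1 and AKR1C2 were identical at 245 of 246 aligned bases (99.6%), and AKR1C3 at this start matched AKR1C1 at 76.8% of 241. The second AKR1C3 start, at chr10:5094164-5094413, plus strand, matched AKR1C1 at 78.6% of 234 and is not printed.
AKR1C1: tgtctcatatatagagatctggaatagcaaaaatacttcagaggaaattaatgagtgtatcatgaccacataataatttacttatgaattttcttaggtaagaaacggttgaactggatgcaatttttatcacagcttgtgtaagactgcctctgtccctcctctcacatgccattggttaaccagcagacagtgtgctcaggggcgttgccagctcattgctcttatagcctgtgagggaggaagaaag
AKR1C2: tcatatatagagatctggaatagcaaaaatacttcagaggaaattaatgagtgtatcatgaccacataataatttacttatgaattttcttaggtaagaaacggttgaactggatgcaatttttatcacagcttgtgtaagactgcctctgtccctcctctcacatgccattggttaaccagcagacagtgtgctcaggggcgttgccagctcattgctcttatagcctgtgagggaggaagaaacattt
AKR1C3: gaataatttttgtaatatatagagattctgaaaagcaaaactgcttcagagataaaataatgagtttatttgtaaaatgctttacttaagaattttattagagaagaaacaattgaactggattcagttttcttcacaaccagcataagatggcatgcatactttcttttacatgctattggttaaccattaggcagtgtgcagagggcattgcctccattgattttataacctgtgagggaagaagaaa
The core of the antioxidant response element, TGACNNNGC, was searched on both strands of these 250 bases. Its letters were not in these windows of the 3 genes, nor in that of the second AKR1C3 start.

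Of the thioredoxin and peroxiredoxin genes, none of 5 passed and 1 passed with the block. TXNRD1, the cytosolic thioredoxin reductase, read 11.18, 11.22 and 10.93 under negative pressure, against 10.74, 10.82 and 10.37 at ambient pressure. The replicate 3 array was the lowest of each group, and the difference within each replicate number was 0.44, 0.41 and 0.56. The log2 difference was 0.47 ± 0.15 (SE; limma adjusted p = 0.235), with the replicate block adjusted p = 0.0310. Its second probe set was near the floor of the arrays (mean 1.57) and stood at -0.18. Thioredoxin itself, TXN, stood at 0.13, and the peroxiredoxin PRDX1, which reduces hydrogen peroxide, at 0.19 with groups apart. PRDX6, a peroxiredoxin that also repairs membrane lipids, read 11.68 ± 0.06 under negative pressure and 11.68 ± 0.04 at ambient pressure (SD, n = 3 each). The 95% interval of its difference ran from -0.24 to 0.24. A second bright probe set of PRDX6 (mean 10.92) stood at 0.19 with overlapping groups. SRXN1, the sulfiredoxin that restores over-oxidised peroxiredoxins, read 9.19, 9.03 and 9.23 under negative pressure, against 9.34, 9.29 and 9.36 at ambient pressure. The groups did not overlap in the downward direction, with a log2 difference of -0.18 ± 0.11 (SE; limma adjusted p = 0.630). The estimates of TXNRD1 and SRXN1, both widely used NRF2 targets, stood on opposite sides of 0. The 95% interval of SRXN1 ran from -0.43 to 0.07, and neither gene passed without the block.

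Glutathione peroxidases reduce peroxides at the expense of glutathione. GPX2, the epithelial form, read 9.99, 9.92 and 9.62 under negative pressure, against 9.51, 9.45 and 9.27 at ambient pressure. Every negative pressure array exceeded every ambient array, and the log2 difference was 0.43 ± 0.14 (SE; limma adjusted p = 0.232, with the replicate block 0.0440). Its other probe set was dim (mean 2.64) and stood at 0.06. GPX4, which reduces lipid peroxides, stood at 0.40 (adjusted p = 0.348 in limma, 0.0613 with the block), and its groups overlapped at ambient replicate 3. GPX1, the abundant cytosolic form, stood at 0.03 with a 95% interval from -0.22 to 0.27. Of the 3, none passed, and GPX2 passed with the block.

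The starts of TXNRD1 and GPX2 each held the core motif, and they are shown because both genes passed with the replicate block. Capitals mark TGACNNNGC on either strand. The 2 starts of TXNRD1 lie at chr12:104215529-104215778, plus strand, and chr12:104286782-104287031, plus strand, and GPX2 at chr14:64942746-64942995, minus strand.
TXNRD1, upstream start: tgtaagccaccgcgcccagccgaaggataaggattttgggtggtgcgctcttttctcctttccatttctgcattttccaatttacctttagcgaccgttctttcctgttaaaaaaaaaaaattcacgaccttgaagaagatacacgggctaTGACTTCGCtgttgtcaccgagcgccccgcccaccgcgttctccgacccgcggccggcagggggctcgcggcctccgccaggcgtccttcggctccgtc
TXNRD1, downstream start: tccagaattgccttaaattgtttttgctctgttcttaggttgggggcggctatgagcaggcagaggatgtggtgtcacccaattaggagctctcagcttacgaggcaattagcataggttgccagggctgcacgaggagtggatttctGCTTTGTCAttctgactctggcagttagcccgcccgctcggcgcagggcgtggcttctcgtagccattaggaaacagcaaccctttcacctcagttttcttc
GPX2: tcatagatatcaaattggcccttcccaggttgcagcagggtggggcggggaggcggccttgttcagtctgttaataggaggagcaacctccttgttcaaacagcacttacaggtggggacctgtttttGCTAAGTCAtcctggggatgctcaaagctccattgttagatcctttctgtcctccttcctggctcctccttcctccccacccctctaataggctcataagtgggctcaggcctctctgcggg
Of 29 listed genes with a promoter in the table, 9 held the motif in at least 1 window (31.0%), against 13.2% of 27305 genes in the whole table. With the element's next base, an A, added to the end of the motif, which keeps a subset of the same matches, the shares were 24.1% and 3.2%. In the list of other pathway genes described below, 22.0% of genes held the motif and 3.4% the longer form. The members were listed as genes of the NRF2 programme, so their higher share is not a test of that membership. Windows of 41 bases around 4 further matches are given to compare the motif and its flanks: GCLM at chr1:93909440-93909480, minus strand, GSTP1 at chr11:67583730-67583770, plus strand, ME1 at chr6:83431164-83431204, minus strand, and KEAP1 at chr19:10502778-10502818, minus strand.
GCLM: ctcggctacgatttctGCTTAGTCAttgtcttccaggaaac
GSTP1: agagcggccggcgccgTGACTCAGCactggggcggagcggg
ME1: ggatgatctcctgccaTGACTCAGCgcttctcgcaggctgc
KEAP1: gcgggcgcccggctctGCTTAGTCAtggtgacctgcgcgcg
In GCLM and KEAP1 the motif reads on the strand opposite to the gene, and in GSTP1 and ME1 on the strand of the gene. The 9 genes with the motif had log2 differences from 0.12 to 0.47 with a median of 0.22, and the 19 measured genes in the table without it ran from -0.18 to 0.54 with a median of 0.20. A match of letters is a description and does not show that NRF2 binds there.

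Of the regulators, none of 3 passed. NFE2L2 read 9.52, 9.68 and 8.81 under negative pressure, against 9.54, 9.32 and 8.49 at ambient pressure. Its spread within a group, with an SD of 0.46 under negative pressure and 0.55 at ambient pressure, exceeded the difference of 0.22 ± 0.29 (SE; limma adjusted p = 0.875). Without ambient replicate 3 the difference was -0.09, and dimmer probe sets of NFE2L2 stood at 0.28, with groups apart, and -0.05. A probe set annotated to both NFE2L2 and CSNK2A1 (mean 7.46) stood at -0.21 with overlapping groups. KEAP1 read 8.06, 7.82 and 7.99 under negative pressure and 7.75, 7.73 and 7.96 at ambient pressure, with overlapping groups and a difference of 0.14 (adjusted p = 0.778 in limma). MAFG, the small MAF partner, read 7.14, 7.47 and 7.45 under negative pressure, against 7.004, 6.979 and 6.948 at ambient pressure. Its groups were apart, with a difference of 0.37 ± 0.12 (SE; limma adjusted p = 0.263), but its second probe set, with a mean of 5.79, stood at -0.09.

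Of the quinone, heme and feedback genes none of 3 passed in either fit, with differences from 0.16 to 0.28. NQO1, the quinone reductase, read 10.16, 10.02 and 10.34 under negative pressure, against 9.91, 9.92 and 10.09 at ambient pressure, and the groups overlapped. Its difference was 0.20 (limma adjusted p = 0.630, 95% interval -0.08 to 0.48), and its other probe sets stood at 0.20 and -0.04. HMOX1, the heme oxygenase, was dim at 4.65, 4.89 and 4.73 under negative pressure and 4.22, 4.59 and 4.61 at ambient pressure. Its groups were narrowly apart, with a difference of 0.28 (adjusted p = 0.502 in limma, 95% interval -0.04 to 0.59). OSGIN1, an oxidative stress-induced growth inhibitor, stood at 0.16 with overlapping groups. Its 95% interval ran from -0.16 to 0.47.

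Glutathione is made in a first step by glutamate-cysteine ligase, with GCLC as its catalytic and GCLM as its modifier subunit, and is reduced again by GSR. GCLC read 9.34, 9.33 and 8.85 under negative pressure, against 9.09, 8.99 and 8.74 at ambient pressure. GCLM read 9.79, 10.13 and 9.56 under negative pressure, against 9.67, 9.70 and 9.62 at ambient pressure. Negative pressure replicate 3 lay within the ambient range for GCLC and below it for GCLM, and the differences were 0.23 for GCLC (limma adjusted p = 0.691) and 0.16 for GCLM (0.795). The second bright probe set of GCLC stood at 0.41 with groups apart, and the other probe sets of GCLM at 0.38 and -0.26. GSR stood at 0.08. Of the 3 genes, none passed in either fit.

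Of the 5 enzymes of conjugation and hydrolysis none passed, and the differences of the probe sets used ran from 0.03 to 0.30. GSTP1, the main glutathione S-transferase of keratinocytes, stood at 0.30 and UGDH, which makes UDP-glucuronic acid, at 0.30, with limma adjusted p of 0.624 and 0.522. EPHX1, the microsomal epoxide hydrolase, stood at 0.25, GSTM4 at 0.14 and GSTM3 at 0.03. GSTM3 turned below 0 under several alternatives, and its other, dimmer probe set stood at -0.28 with the negative pressure arrays wholly below the ambient arrays. The members that export conjugates, ABCC3 and ABCC2, lay below 0. ABCC3 read 6.36, 6.59 and 6.51 under negative pressure, against 6.64, 6.85 and 6.64 at ambient pressure, which put its groups apart with a difference of -0.22 (adjusted p = 0.551 in limma). The other, dimmer probe sets of ABCC3 stood at -0.17, -0.21, -0.11 and 0.05, each with overlapping groups. ABCC2, a canalicular exporter of liver, was dim and stood at -0.06.

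FTL, the light chain of the iron store ferritin, read 12.20, 12.26 and 12.06 under negative pressure, against 11.87, 11.86 and 11.81 at ambient pressure. The groups were apart, with a difference of 0.33 ± 0.11 (SE; limma adjusted p = 0.267, 0.114 with the replicate block). Its second probe set stood at 0.52, and both are of the cross-hybridising type, so ferritin pseudogenes may share the signal. Among the enzymes that supply NADPH, PGD of the pentose phosphate pathway stood at 0.22, malic enzyme ME1 at 0.22, transketolase TKT at 0.15 and transaldolase TALDO1 at -0.09, with overlapping groups and limma adjusted p from 0.634 to 0.874. Another, dimmer probe set of TKT (mean 6.11) stood at 0.59 with groups apart (adjusted p among all probe sets 0.112 in limma, 0.0398 with the block). The carbonyl reductases CBR1 and CBR3, neighbours on chromosome 21 that reduce quinones and ketones, stood at 0.12 and -0.19.

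**Figure D3:**
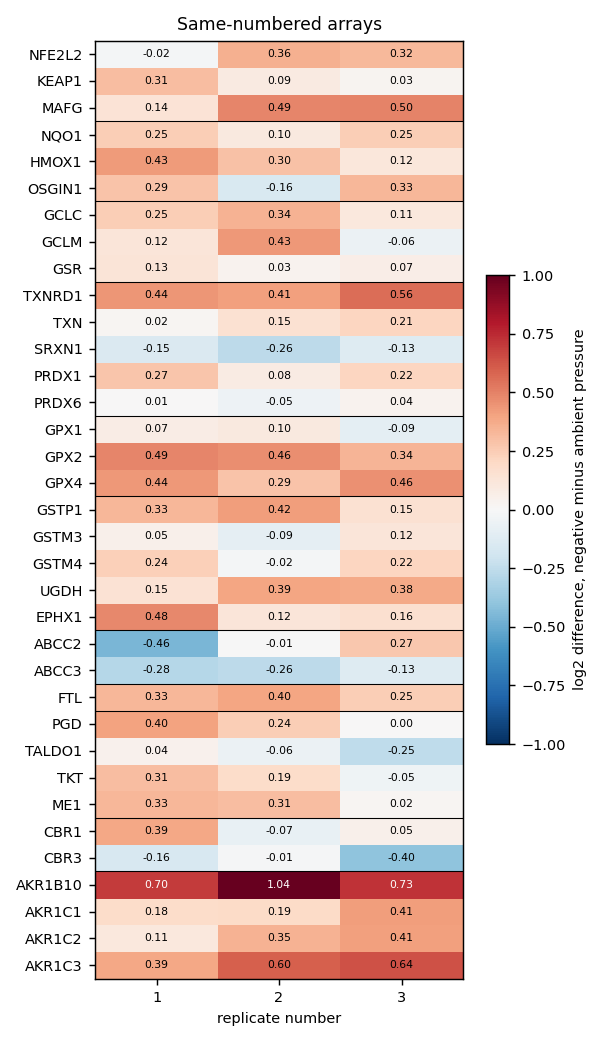
Log2 difference of the negative minus the ambient pressure array of the same replicate number for the 35 measured genes (columns 1 to 3; red higher, blue lower under negative pressure). AKR1B10 differed by 0.70, 1.04 and 0.73, while the rows of NFE2L2, GCLM, ABCC2 and CBR1, among others, change sign between replicate numbers.

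Within replicate numbers the picture varied from gene to gene. The median difference of the 35 genes was 0.25 for replicate 1, 0.19 for replicate 2 and 0.16 for replicate 3, whereas it was 0.05, 0.00 and 0.00 over all genes. In 21 of 35 genes all 3 differences were above 0, against 22.1% of all genes, and in 3, SRXN1, ABCC3 and CBR3, all 3 were below, against 3303 of all 19775 genes. The 4 aldo-keto reductases were higher in each replicate number, with AKR1C3 at 0.39, 0.60 and 0.64.

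The choice of probe set mattered for some genes. Of the 35 genes 19 had more than 1 probe set, and of 21 other probe sets above the median gene mean 15 had the sign of the one used, as did 5 of 12 dimmer ones. AKR1B10, AKR1C3 and PRDX1 had a single probe set, so nothing in the files checks theirs, and both probe sets of FTL were higher.

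**Figure D4:**
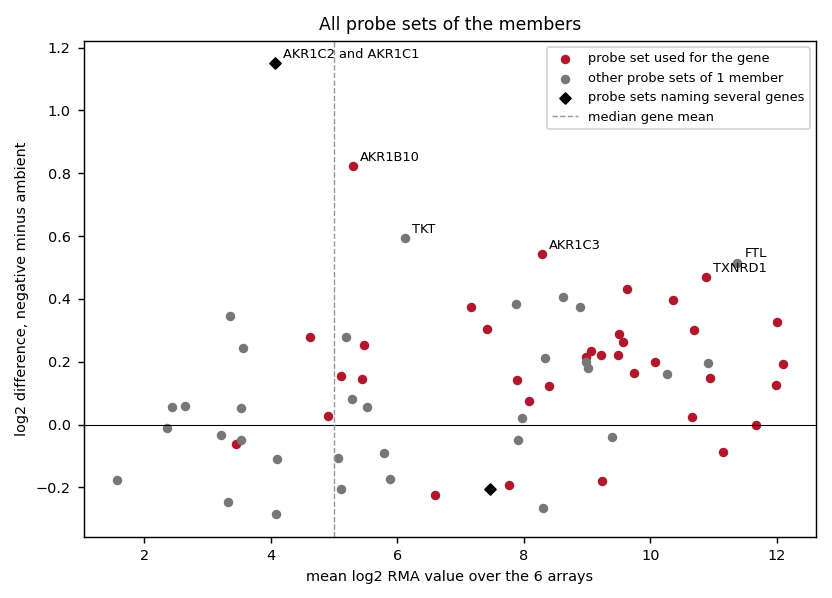
Log2 difference, negative minus ambient pressure, against the mean log2 RMA value over the 6 arrays for every probe set that names a member. The probe set naming AKR1C2 and AKR1C1 stands at 1.15 with a low mean, AKR1B10 at 0.82, and dim probe sets left of the dashed median gene mean lie on both sides of 0.

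Other genes of the pathway and of its enzyme families were taken from a list of 73, of which 67 were measured. Of these 4 rose in limma, none fell and 63 did not pass, where 0.607% of all genes passed higher and 0.314% lower. With the replicate block 8 rose and none fell, where 2.87% of all genes passed higher and 2.06% lower. The list median was 0.08 and 41 lay above 0 (61.2%), against 0.01 and 53.4% over all genes. IDH1, the cytosolic isocitrate dehydrogenase that yields NADPH, read 10.31, 10.39 and 10.25 under negative pressure, against 9.71, 9.62 and 9.60 at ambient pressure, a rise of 0.67 ± 0.11 (SE; limma adjusted p = 0.0296). EPHX2, the soluble epoxide hydrolase, rose by 0.76 from a dim probe set (adjusted p = 0.0299 in limma). Catalase, CAT, which breaks down hydrogen peroxide, read 10.37, 10.18 and 10.08 under negative pressure, against 9.62, 9.57 and 9.51 at ambient pressure, a rise of 0.64 (adjusted p = 0.0455 in limma). SQSTM1, whose protein p62 can sequester KEAP1, rose by 0.64 (adjusted p = 0.0325 in limma). It stood at 0.11 without probe sets marked as cross-hybridising or as matching more than 1 transcript. The calls of all 4 were lost without any 1 of 5 arrays, negative pressure replicates 1 and 2 and each ambient replicate, with adjusted p from 0.0644 to 0.220. The call of CAT was also lost with arrays centred on their medians (0.0765), and those of IDH1 and SQSTM1 with the mean of their probe sets (0.105 and 0.116). When each gene took its most variable probe set, the calls of IDH1 (0.289), EPHX2 (0.0519) and CAT (0.0758) were lost.

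The 4 that passed with the block alone were GLRX, a glutaredoxin (0.72, block adjusted p = 0.00424 in limma), TXNIP, which binds and inhibits thioredoxin (0.85, block 0.0232), NFE2L1, the NRF2 relative that controls proteasome genes (0.55, block 0.0169), and TRIM16 (0.48, block 0.0255). TXNIP differed by 1.56 in replicate 3, against 0.51 and 0.48 in replicates 1 and 2. The cystine transporter SLC7A11 stood at 0.03 and the exporter ABCC1 at 0.01, each with overlapping groups.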

How the data were processed

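RNA of 3 HaCaT cultures under negative pressure and 3 at ambient pressure was measured on 6 arrays of 54675 probe sets. The authors deposited log2 values; the submitters' processing notes name RMA and Affymetrix Expression Console 1.2. No batch is stated in the labels. By the platform annotation 41091 probe sets had 1 symbol, 1801 several and 11721 none, with 62 controls apart, and 41037 gene identifiers matched the RefSeq table.

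Each of 19775 genes took its brightest single-gene probe set, with no filter. Groups were compared with lmFit and eBayes of limma 3.58.1 (R 4.3.3) with p-values adjusted over all genes (Benjamini-Hochberg, 0.05), and the fit was tested on simulated data. The members and lists, and the rule for genes given array by array (members past either fit, regulators, usual NRF2 read-outs, aldo-keto reductases; other pathway genes past either fit), were chosen with earlier results of these data known. FTL and ABCC3 array by array, and SLC7A11, ABCC1, DSG3 and CDH5, were added after their values were seen.

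Both groups number their replicates alike, and the same-numbered arrays' deviations from the group means correlated at 0.27, 0.27 and 0.53 across genes. Each was above 0.1, the minimum set, so the numbers were taken as pairs. This rests on the data and not on a stated shared day. The rule could not tell replicates 1 and 2 apart. Negative pressure replicate 2 correlated more with ambient replicate 1 (0.43), and negative pressure replicate 1 with ambient replicate 2 also exceeded 0.1 (0.15). All calls with the replicate block rest on this pairing. Alternatives were the block, other normalizations, probe set choices, variance models and left-out arrays. Promoters of RefSeq (GRCh38.p14) were aligned with Biopython 1.88.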

Additional observations from a re-analysis of the deposited data

Results flagged for a closer look

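The probe set annotated to both AKR1C2 and AKR1C1 lies outside the values used for single genes and stood 1.15 higher on the log2 scale under negative pressure, with all 3 negative pressure arrays (4.06 to 5.03) above the 3 ambient arrays (3.36 to 3.68). It did not pass among all probe sets (limma adjusted p = 0.0843), and did with the replicate block (0.00957). The bright probe sets of AKR1C2 and AKR1C1 stood at 0.29 and 0.26. Which transcript the shared probe set reads was not tested.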

How the results depend on the processing

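AKR1B10 kept its direction under every alternative that could give it a value, and its call in all of them other than 5 of the 6 left-out arrays. With the replicate block 976 genes, 4 members and 8 other pathway genes passed, against 182, 1 and 4 without it. With array weights the counts were 1145, 4 (AKR1B10, AKR1C3, GPX2 and FTL) and 12. Without both replicate 3 arrays 372 genes passed, and at an adjusted p under 0.10 352 genes and 2 members. The mean of all probe sets gave 2 members, AKR1B10 and AKR1C3, and a median of 0.14 in place of 0.20. Taking the most variable probe set gave 2 other pathway genes. Without probe sets marked as cross-hybridising or as matching more than 1 transcript 0 of 27 members passed. AKR1B10, whose 1 probe set has the second mark, has no other. Leaving out 1 array gave 7 to 145 genes, 0 to 1 members, 0 to 4 other pathway genes and a member median of 0.15 to 0.20.

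Of 720 values of single genes under alternatives, 649 kept side and direction, 32 lost a call, 17 gained one and 22 turned in sign, of which 0 belonged to a called value. With the most variable probe set NQO1 stood at -0.040, TXN at -0.048, PRDX6 at 0.19 and AKR1C1 at -0.25. Without probe sets marked as cross-hybridising or as matching more than 1 transcript TXN stood at -0.048, GSTM3 at -0.28 and AKR1C2 at -0.011. With the mean of all probe sets PRDX6 stood at 0.096 and GSTM3 at -0.13, while GSTM3 stood at -0.0011 when arrays were weighted and -0.018 without replicate 3 of either group. Leaving out 1 array moved NFE2L2 between -0.092 and 0.48, PRDX6 between -0.036 and 0.014, GPX1 between -0.0014 and 0.056, GSTM3 between -0.12 and 0.13, ABCC2 between -0.23 and 0.094 and CBR1 between -0.015 and 0.19. The cause was not tested. Repeated quantile normalization, median centring and cyclic loess each gave 1 member, and moved the median of all genes by less than 0.1. The split of calls, 120 higher and 62 lower, was 135 and 105 with cyclic loess and 95 and 78 when each gene took its most variable probe set.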
